A study of Mus musculus with 8 samples.

Results

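A set of 8 genes of bone morphogenetic protein (BMP) signalling was followed in chromatin-associated RNA after tumour necrosis factor (TNF): the ligand genes Bmp2, Bmp4 and Inhba, the target genes Id1, Id2 and Id3, and the inhibitory SMAD genes Smad6 and Smad7. They were chosen by symbol from a count table of 45706 gene rows. All 8 passed the filter on low counts, which 15049 genes passed. The cells were primary embryonic fibroblasts from C57BL/6 mice. Cells with the genotype crel-/-rela-/- (KO), which lack 2 transactivating subunits of the transcription factor NF-kB, were compared with wild-type (WT) cells. Cultures of both genotypes were starved overnight in low serum and given TNF at 10 ng/ml, an inflammatory cytokine. RNA bound to chromatin, which is rich in transcripts still being made, was taken at 0, 15, 45 and 60 min. There was 1 library for each genotype and time, so 8 libraries in all, and the labels do not say whether they came from separate embryos or cultures. No untreated library exists in this set at 15, 45 or 60 min, so a change after TNF cannot be told apart from one of time or handling.

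BMP ligands such as BMP2 and BMP4 bind pairs of serine/threonine kinase receptors, which phosphorylate SMAD1, SMAD5 and SMAD9. These enter the nucleus with SMAD4 and activate target genes. Inhba encodes a subunit of activin A, a related ligand that signals through SMAD2 and SMAD3. The ID proteins are direct BMP targets that lack a DNA-binding region and hold back basic helix-loop-helix (bHLH) factors by pairing with them. SMAD6 and SMAD7 are feedback inhibitors: SMAD6 acts mainly on BMP signals, and SMAD7 also acts on TGF-beta and activin signals. In fibroblasts these pathways are known for roles in matrix production and in the choice of cartilage and bone fates.

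Upstream sequence was examined for the members with a promoter entry. Of those with a matching gene start, Smad6 and Bmp4 were called between the genotypes, and Id2 and Inhba were not. The RefSeq promoter table (GRCm38.p6, the same assembly as the mm10 build of the files) had an entry for 5 of the 8 genes: Id2, Id3, Smad6, Inhba and Bmp4. The RefSeq start of Id3 lay 325 bases inside the gene as the count table draws it, so its window is not shown. The 250 bases before the start are given 5′ to 3′ on the gene's strand. They lie at chr9:64022060-64022309 (Smad6), chr14:46390670-46390919 (Bmp4) and chr12:25096093-25096342 (Id2), all on the minus strand. Capitals mark matches to 3 motifs searched on both strands, GGCGCC (the core of a BMP response element), CAGAC (a SMAD site) and the kappaB motif of NF-kB.
Smad6: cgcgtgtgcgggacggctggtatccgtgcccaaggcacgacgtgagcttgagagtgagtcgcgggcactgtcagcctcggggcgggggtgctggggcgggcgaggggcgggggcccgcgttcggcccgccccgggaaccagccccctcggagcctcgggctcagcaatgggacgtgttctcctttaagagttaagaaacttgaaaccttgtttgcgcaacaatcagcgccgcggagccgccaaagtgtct
Bmp4: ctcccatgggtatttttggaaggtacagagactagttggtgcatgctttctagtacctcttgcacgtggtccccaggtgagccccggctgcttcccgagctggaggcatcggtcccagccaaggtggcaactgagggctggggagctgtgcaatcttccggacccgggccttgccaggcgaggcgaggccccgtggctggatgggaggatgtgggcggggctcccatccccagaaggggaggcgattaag
Id2: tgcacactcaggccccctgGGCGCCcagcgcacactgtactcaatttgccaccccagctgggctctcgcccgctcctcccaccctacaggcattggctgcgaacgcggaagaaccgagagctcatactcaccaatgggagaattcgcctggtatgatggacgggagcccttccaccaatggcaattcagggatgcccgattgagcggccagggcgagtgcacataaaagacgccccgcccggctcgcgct
Of these 3 windows, that of Id2 held 1 GGCGCC, 231 to 226 bases before the start, and those of Smad6 and Bmp4 held none of the 3 motifs. Among 32851 promoter windows of the same length, 9.59% held GGCGCC, 42.2% held CAGAC and 3.9% held the kappaB motif. The Smad6 window had a GC content of 66.8% and 27 CG dinucleotides, that of Bmp4 63.2% and 11, and that of Id2 62.8% and 18. The window of Inhba, which like Id2 was called in no comparison, is not printed. It had 43.2%, 3 CG dinucleotides and none of the motifs. The window before the unmatched RefSeq start of Id3 held 2 CAGAC, 167 to 163 and 68 to 64 bases before that start. It held no GGCGCC and no kappaB motif. The medians over all windows were 52.4% and 6. A motif match describes these letters and does not show a bound site.

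The libraries held 12359817 to 15607331 counts, of which 3 transcripts (Gm26917, Gm42418 and Malat1) took 58.9% to 70.6%. Levels are given as CPM, the count divided by the TMM-scaled library size. A count of 0 allows up to 3 counts, or 0.180 to 0.265 CPM in these libraries. Rela had 241 to 324 exonic counts in KO libraries and 324 to 704 in WT libraries, and Rel had 308 to 633 in KO and 151 to 805 in WT. Which part of each gene was removed is not stated, so these counts check nothing about the labels. Fibroblast markers were abundant, with all 9 tested and a summed level of 5806 to 7908 CPM in KO libraries and 6337 to 8988 CPM in WT libraries. Cartilage and bone markers (5 of 8 tested) summed to 424 CPM in the KO library at 0 min, to between 38.9 and 67.4 CPM in KO after TNF and to 24.1 to 32.6 CPM in WT libraries. Leukocyte markers (9 of 9 tested) summed to 6.04 to 8.13 CPM in KO and 54.7 to 75.4 CPM in WT. Endothelial markers (4 of 9 tested, Cldn5 at 0 in every library) summed to 10.1 to 15.8 CPM in KO and 6.20 to 8.96 CPM in WT. Smooth muscle markers (5 of 5 tested) summed to 138 to 411 CPM in KO and 171 to 325 CPM in WT. Epithelial markers (1 of 6 tested) summed to 7.30 CPM in the KO library at 0 min and to 0.442 to 1.05 CPM in KO after TNF. In WT libraries they summed to 0.0720 to 0.868 CPM.

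The members covered a wide range of levels. Per kilobase of exon, Id3 (chr4:136143497-136145755) was at 16.6 ± 4.0 CPM and Smad7 (chr18:75367529-75395935) at 15.9 ± 7.9 CPM per kilobase (mean ± SD, n = 8 libraries over both genotypes and all times). Id1 (chr2:152736251-152737410) followed at 11.9 ± 5.9, Inhba (chr13:16011851-16027211) at 7.80 ± 0.88, Bmp4 (chr14:46383520-46390669) at 4.94 ± 1.57, Id2 (chr12:25093801-25096092) at 4.07 ± 0.89 and Smad6 (chr9:63953076-64022059) at 3.98 ± 1.43 CPM per kilobase. Bmp2 (chr2:133552159-133562885) was lowest at 0.467 ± 0.183 CPM per kilobase. The ranges over the 8 libraries met for each neighbouring pair in this order except Smad6 and Bmp2, at 2.38 to 6.28 and 0.190 to 0.752 CPM per kilobase. Those of Inhba and Bmp4, 6.59 to 8.98 and 2.80 to 7.43, met although their means ± SD did not. The counts cover exons only. The annotated exons fill 100% of the Id1 gene, 79.3% of Id3 and 55.4% of Id2, but 15.9% of Smad7, 12.9% of Inhba and 4.65% of Smad6. Reads from introns of the longer genes are therefore not in these values. No other annotated gene overlapped an exon of the 8 members apart from Gm15217, which lies antisense to 89 bases of Bmp4 and had 0 counts in every library.

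**Figure D1:**
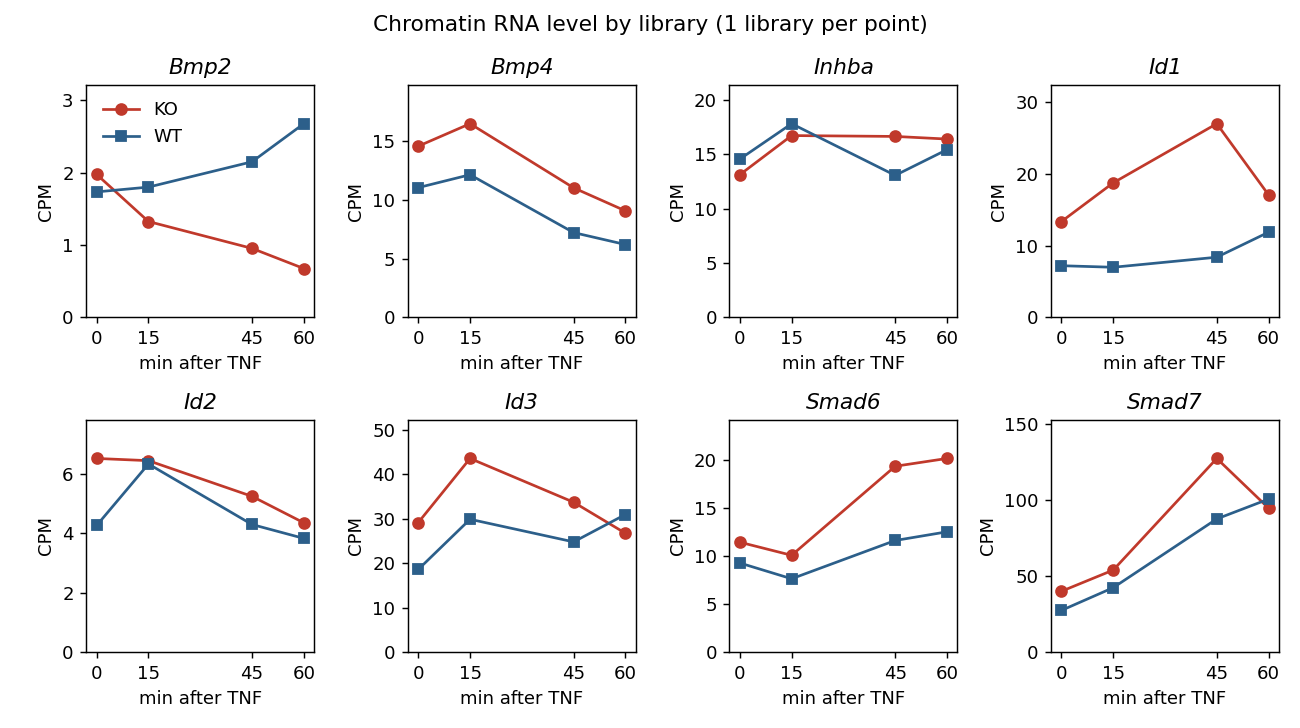
Level of each of the 8 genes in each library, in TMM-scaled CPM, against minutes after TNF, with KO in red circles and WT in blue squares and 1 library per point. Smad7 climbed from 15 to 45 min in both genotypes, the KO points of Id1 lay above every WT point, and the later Bmp2 points lay below the 0 min point in KO.

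Smad7, the broad feedback inhibitor of the family, rose strongly after TNF in both genotypes. It had 669, 611, 1601 and 1260 counts in KO at 0, 15, 45 and 60 min, which are 40.0, 54.0, 127 and 94.6 CPM. In WT it had 412, 589, 1222 and 1391 counts, or 27.5, 42.4, 87.6 and 101 CPM. The 45 and 60 min libraries of each genotype lay above both of its earlier libraries. The mean of 45 and 60 min was tested against 0 min with edgeR's quasi-likelihood test, with p-values adjusted over all 15049 genes (Benjamini-Hochberg, threshold 0.05). Smad7 rose by a log2 fold change of 1.47 ± 0.21 in KO (adjusted p = 0.00559) and 1.78 ± 0.22 in WT (adjusted p = 0.000494), where ± gives the standard error. These are 2.77-fold and 3.42-fold. It was the only member called higher of 8 in either genotype, where 1.32% of all genes tested were called higher in KO and 4.17% in WT, and no member was called lower, where 0.518% and 1.31% of genes were. Against 15 min in place of 0 min its call held in both genotypes. Its KO call was lost with no filter on low counts (1.48, adjusted p = 0.0907).

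Most of the Smad7 change lay between 15 and 45 min. At 15 min the ratio to 0 min was 0.43 on the log2 scale in KO (exact 95% interval 0.27 to 0.59) and 0.63 in WT (0.44 to 0.81), and scaled by total counts it was 0.09 in KO and 0.29 in WT. At 45 min it was 1.67 (1.54 to 1.80) in KO and 1.67 (1.51 to 1.84) in WT, and at 60 min 1.24 (1.10 to 1.38) in KO and 1.87 (1.71 to 2.03) in WT. The KO library at 60 min was thus below that at 45 min, while the WT library at 60 min was above. These single ratios compare 2 libraries, have no replicate check, and their intervals cover counting error only. A member was past the fold used for single libraries where the ratio was at least 2-fold, the interval excluded 1 and the higher library had at least 20 counts. Smad7 was past it upward at 45 and 60 min in both genotypes, as were 2.58% and 3.02% of genes in KO and 4.13% and 5.01% in WT.

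Smad6, the inhibitor directed mainly at BMP signals, was highest in the late KO libraries. Its levels were 11.4, 10.1, 19.3 and 20.1 CPM in KO and 9.27, 7.63, 11.6 and 12.5 CPM in WT at 0, 15, 45 and 60 min. Every KO library exceeded the WT library of the same time, and both genotypes had their lowest level at 15 min. The late difference from 0 min was 0.79 ± 0.20 in KO (adjusted p = 0.0696) and 0.38 ± 0.21 in WT (adjusted p = 0.369), both short of the threshold. The KO value was called in the fits without the WT 45 min library (0.79) and without the WT 60 min library (0.78), which share the estimate of spread. It was also called with 0 and 15 min joined as the baseline (0.87).

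Id1 was higher in KO than in WT at every time. It had 223, 212, 339 and 227 counts in KO, or 13.3, 18.7, 26.9 and 17.0 CPM, against 108, 97, 117 and 164 counts in WT, or 7.20, 6.98, 8.38 and 11.9 CPM. The lowest KO library lay above the highest WT library, so the genotypes did not overlap. KO peaked at 45 min, at a log2 ratio to 0 min of 1.01 (0.77 to 1.26), past the 2-fold size by TMM but not scaled by total counts (0.62), while WT was highest at 60 min, at 0.72 (0.36 to 1.08). The late difference from 0 min was 0.72 ± 0.28 in KO (adjusted p = 0.213) and 0.49 ± 0.31 in WT (adjusted p = 0.441), neither past the threshold.

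Id3, the most abundant ID gene, had its highest KO level at 15 min. It was at 29.1, 43.5, 33.7 and 26.7 CPM in KO and 18.6, 29.9, 24.8 and 30.9 CPM in WT. From 0 to 15 min the log2 ratio was 0.58 (0.40 to 0.76) in KO and 0.68 (0.46 to 0.91) in WT, below the 2-fold size, and scaled by total counts it was 0.23 in KO and 0.35 in WT. By 60 min KO was near its 0 min level (-0.12, -0.33 to 0.08) and WT was above it (0.73, 0.51 to 0.96). The late difference from 0 min was 0.05 ± 0.21 in KO (adjusted p = 0.924) and 0.58 ± 0.22 in WT (adjusted p = 0.157).

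Id2, a close relative expressed at a lower level, was at 6.52, 6.45, 5.25 and 4.36 CPM in KO and 4.27, 6.34, 4.30 and 3.83 CPM in WT. The 2 genotypes differed most at 0 min and were nearly equal at 15 min. The late difference from 0 min was -0.44 ± 0.27 in KO (adjusted p = 0.412) and -0.07 ± 0.29 in WT (adjusted p = 0.932).

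The ligand genes did not move as a group either. Bmp4 was at 14.6, 16.5, 11.0 and 9.09 CPM in KO and 11.1, 12.2, 7.24 and 6.22 CPM in WT. In both genotypes the 2 late libraries lay below the 2 early ones. The late difference from 0 min was -0.54 ± 0.22 in KO (adjusted p = 0.227) and -0.72 ± 0.23 in WT (adjusted p = 0.0989), short of the threshold. With 0 and 15 min joined as the baseline Bmp4 was called lower in both, at -0.62 in KO (adjusted p = 0.0358) and -0.79 in WT (adjusted p = 0.00862).

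Bmp2, a BMP ligand gene, was the least abundant member. It had 33, 15, 12 and 9 counts in KO, or 1.97, 1.32, 0.954 and 0.676 CPM, and 26, 25, 30 and 37 counts in WT, or 1.73, 1.80, 2.15 and 2.68 CPM. Each later KO library was below the KO library at 0 min. The WT libraries at 45 and 60 min were above that of WT at 0 min, and the one at 15 min was near it, with a log2 ratio of 0.05 by TMM and -0.28 scaled by total counts. At 60 min the log2 ratio to 0 min was -1.55 (-2.80 to -0.45) in KO and 0.63 (-0.14 to 1.41) in WT. The KO ratios at 45 and 60 min were past the 2-fold size downward, as were 2.78% and 3.22% of genes. The late difference from 0 min was -1.27 ± 0.45 in KO (adjusted p = 0.171) and 0.47 ± 0.41 in WT (adjusted p = 0.592). Inhba, the activin subunit gene, varied least, with 13.1, 16.7, 16.6 and 16.4 CPM in KO and 14.5, 17.8, 13.0 and 15.4 CPM in WT. Its late difference was 0.33 ± 0.20 in KO (adjusted p = 0.427) and -0.03 ± 0.20 in WT (adjusted p = 0.959).

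**Figure D2:**
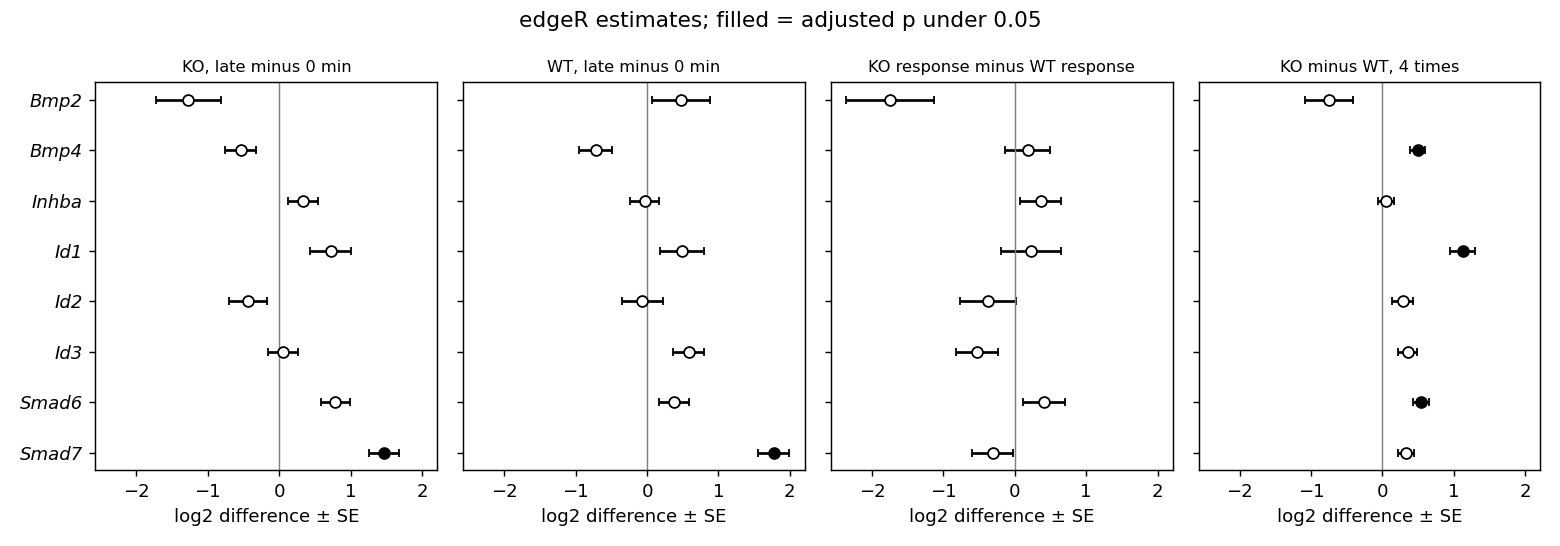
Log2 differences with standard errors for the 8 genes in 4 edgeR comparisons (late is the mean of 45 and 60 min), with filled points where the adjusted p is under 0.05. Smad7 is filled in both late responses, no gene is filled for the difference of the responses, and Id1, Smad6 and Bmp4 are filled for KO minus WT over the 4 times.

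The late responses of the genotypes were then compared directly, as KO response minus WT response. No member of 8 was called at the adjusted threshold, where 0.498% of genes were, and 1 member, Bmp2, had an unadjusted p under 0.05. Neither DESeq2 nor limma-voom called a member. For Smad7 the difference was -0.31 ± 0.29 (95% interval -0.93 to 0.32, adjusted p = 0.942), so a smaller or a somewhat larger rise in KO both lie inside the interval. For Bmp2 it was -1.75 ± 0.61 (95% interval -3.07 to -0.42, unadjusted p = 0.0140, adjusted p = 0.422). The other members ran from -0.53 ± 0.30 for Id3 to 0.41 ± 0.29 for Smad6. The late libraries of a genotype are 2 different times that stand in for replicates, and the spread at 0 min, with a single library, was taken to be that of the others. The KO 0 min library, highest in cartilage and bone markers and in epithelial markers, is the baseline of every KO late response. The part of these markers in the KO responses was not tested.

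Over all 4 times, Id1, Smad6 and Bmp4 were higher in KO. All 8 libraries entered this edgeR fit, which took time as a block. The 4 times stand in for replicates of each genotype. The p-values thus measure how even a difference was over the times, and not the spread between animals or cultures. Id1 was higher by 1.125 ± 0.173 (2.18-fold, adjusted p = 0.00177), averaging 19.0 ± 5.7 CPM in KO and 8.61 ± 2.25 CPM in WT (SD over 4 times each). Smad6 was higher by 0.54 ± 0.11 (1.45-fold, adjusted p = 0.00907), with means of 15.2 ± 5.2 CPM in KO and 10.3 ± 2.2 CPM in WT. Bmp4 was higher by 0.49 ± 0.10 (1.41-fold, adjusted p = 0.00964), with means of 12.8 ± 3.4 CPM in KO and 9.17 ± 2.89 CPM in WT. These were 3 of 8 members called higher and none lower, where 6.81% of all genes tested were called higher and 9.44% lower. Fewer cells of a type and less RNA per cell cannot be told apart in such bulk samples. The summed cartilage and bone, endothelial and leukocyte marker levels given above also did not overlap between the genotypes, and their part in these results was not tested.

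The Id1 difference held in all 17 alternatives, at 0.93 to 1.34. The calls of Smad6 and Bmp4 were lost without the WT 45 min library (0.47 and 0.46), without the KO 45 min library (0.47 and 0.46), when scaled by total counts (0.36 and 0.31) and with no time block (0.57 and 0.48). That of Bmp4 was lost with DESeq2 as well (0.49, adjusted p = 0.0559).

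Another 4 members were short of the threshold over the 4 times with values above 0: Smad7 at 0.33 ± 0.11 (adjusted p = 0.0644), Id3 at 0.36 ± 0.13 (adjusted p = 0.0980), Id2 at 0.28 ± 0.15 (adjusted p = 0.235) and Inhba at 0.05 ± 0.11 (adjusted p = 0.817). Smad7 and Id3 were called higher without the WT 60 min library (0.48 and 0.54) or the KO 60 min library (0.48 and 0.54), the time at which both were higher in WT. Bmp2 was at -0.75 ± 0.33 (adjusted p = 0.157). It was called lower without the WT 0 min library (-1.18) or the KO 0 min library (-1.18), and at 45 and 60 min alone it was at -1.56 (adjusted p = 0.00113). At each of the 4 times KO exceeded WT for Id1, Id2, Smad6 and Bmp4, 4 of 8 members, as it did for 18.6% of all genes. Scaled by total counts, Id2 was lower in KO at 15 min (log2 ratio -0.16) and 45 min (-0.017). The KO and WT libraries of Id1 alone did not overlap, with KO the higher, as for 5.84% of genes.

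**Figure D3:**
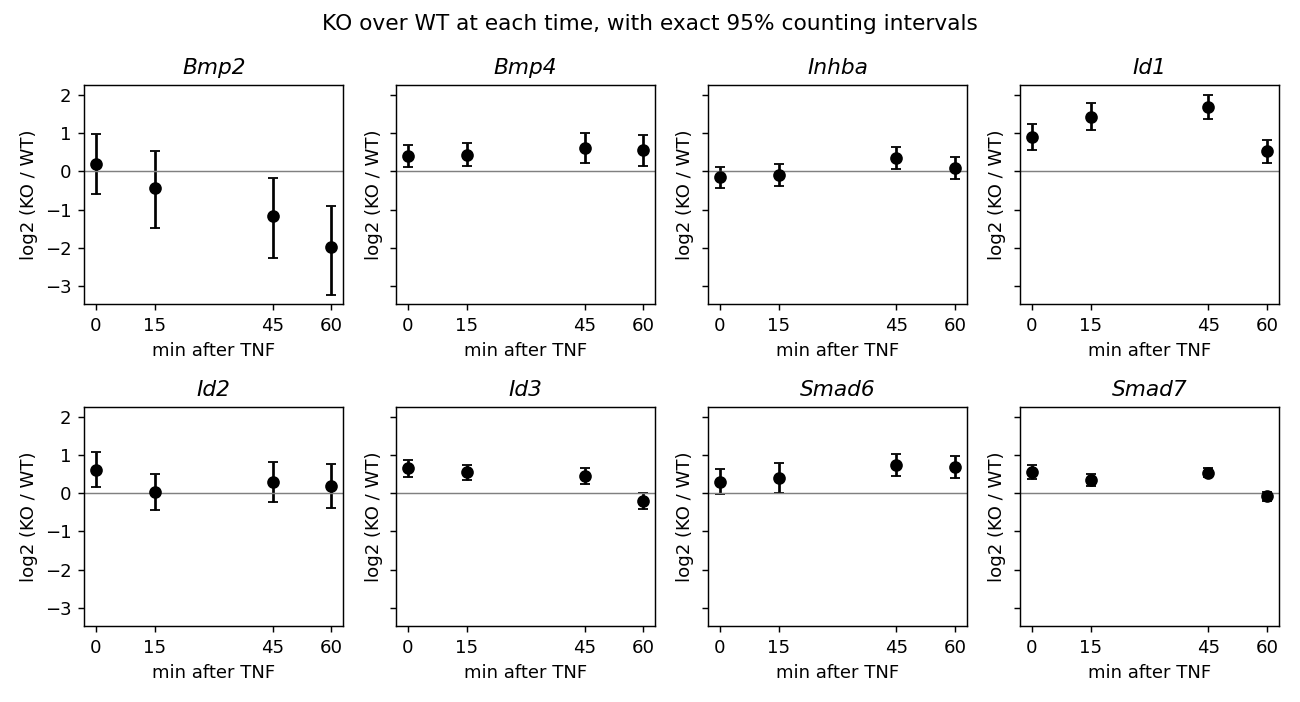
Log2 ratio of the KO to the WT library at each time for the 8 genes, with exact 95% intervals that cover counting error. Id1 lies above 0 throughout and is highest at 45 min, Bmp4 stays near one level, and Bmp2 is near 0 at 0 min and at -1.98 at 60 min.

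Between single libraries, the ratio of KO to WT was uneven over time for some members and even for others. For Id1 the log2 ratio of KO to WT was 0.89 (0.55 to 1.23) at 0 min, 1.42 (1.07 to 1.78) at 15 min, 1.68 (1.3773 to 2.0004) at 45 min and 0.52 (0.23 to 0.82) at 60 min. The 15 and 45 min values were past the 2-fold size, as for 1.83% and 2.75% of genes. For Bmp4 the ratios stayed between 0.40 and 0.61 at all 4 times. For Bmp2 they were 0.19 (-0.60 to 0.99), -0.44 (-1.47 to 0.54), -1.17 (-2.27 to -0.16) and -1.98 (-3.22 to -0.91). The last 2 were past the 2-fold size downward, as for 5.58% and 5.70% of genes.

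The rest of the pathway was read from 9 lists with 100 genes in all, of which 87 passed the filter. The lists were fixed with earlier results of these data known, so their counts and medians are a description and not a test. The list with the most late calls was that of intracellular inhibitors and SMAD co-repressors, which includes Smad6 and Smad7. Of its 12 genes 4 rose and none fell in each genotype, where 1.32% of all genes tested were called higher in KO and 4.17% in WT. The list medians were 0.61 in KO and 0.51 in WT, where the medians over all genes tested were -0.0054 and -0.0039. Beside such shares, a single call in a short list describes that gene and not the list. Beside Smad7 the 4 rising genes were Tgif1 and Tgif2, homeodomain co-repressors that bind SMADs, and Skil, which encodes the SMAD co-repressor SnoN. Tgif1 rose by 1.15 ± 0.18 in KO (adjusted p = 0.00931) and 2.11 ± 0.19 in WT (adjusted p = 4.2e-05), with 37.6, 51.4, 90.9 and 76.3 CPM in KO and 28.9, 51.4, 124 and 126 CPM in WT. Both genotypes had the same Tgif1 level at 15 min and WT was higher at the 2 late times, but the difference between responses, -0.96 ± 0.25, did not pass (adjusted p = 0.168). Tgif2 rose by 1.68 ± 0.26 in KO and 1.86 ± 0.26 in WT. The KO call was lost in 3 of 15 alternatives for Tgif1 (0.70 against 15 min) and in 1 of 15 for Tgif2 (no filter). Skil rose by 1.22 ± 0.25 in KO and 1.76 ± 0.26 in WT, and its KO call was lost in 5 of 15 alternatives, including the fit without the KO 45 min library (0.82).

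The late counts of the other lists stand beside the same shares of all genes called higher, 1.32% in KO and 4.17% in WT. Of 7 activin and TGF-beta ligand genes tested, Tgfb1 rose in both genotypes, by 1.46 ± 0.22 in KO and 1.59 ± 0.21 in WT. It was at 5.98, 5.65, 16.0 and 16.9 CPM in KO and 8.93, 9.79, 25.7 and 28.1 CPM in WT, and its KO call was lost in 2 of 15 alternatives (total counts and no filter). Of 9 TGF-beta target genes tested, 2 rose in KO and 3 in WT. Ltbp2, a matrix protein related to TGF-beta binding proteins, rose by 0.86 ± 0.19 in WT. It was at 137, 148, 179 and 202 CPM in KO and 136, 142, 221 and 271 CPM in WT. Its call was lost in 3 of 15 alternatives, including the fit without the WT 60 min library (0.70). Of 14 antagonists and modulators tested none was called in KO and Crim1, a membrane protein that binds BMPs, rose in WT (1.39 ± 0.21, against 0.70 ± 0.20 and an adjusted p of 0.0949 in KO). No receptor gene of 14, no receptor-activated or common SMAD gene of 6 and no BMP ligand gene of 8 was called late in either genotype. Closest was the activin receptor gene Acvr2a in WT (adjusted p = 0.0508), called lower in 6 of 15 alternatives. The receptor gene Tgfbr3 was called lower in WT in 2 of 15, Smad1 was called higher in KO in 2 of 15, and Bmp4 is given above. Of 12 other BMP target genes tested none was called in KO and 1 rose in WT (Tbx3, 0.94 ± 0.21). Tbx3 was at 14.4, 11.6, 16.3 and 14.8 CPM in KO and 13.6, 14.0, 23.8 and 28.6 CPM in WT. The Tbx3 call was lost in 4 of 15 alternatives, including the fit without the WT 60 min library (0.79). Of 7 bHLH genes tested none was called in KO and Twist2 rose in WT (0.81 ± 0.19). Its levels were 20.4, 19.3, 31.6 and 33.4 CPM in KO and 36.7, 51.1, 56.7 and 71.9 CPM in WT. The KO late response of Twist2 was called in 1 of 15 alternatives. Its WT call was lost in 5 of 15, including the fit without the WT 60 min library (0.62). For the difference of responses no gene of any of the 9 lists was called.

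By genotype over the 4 times, the list counts stand beside 6.81% of all genes tested called higher and 9.44% lower. Among BMP ligand genes 3 of 8 were higher in KO and none lower: Bmp4, Gdf10 (1.89 ± 0.19) and Gdf6 (1.41 ± 0.25). Of the 12 other BMP target genes 3 were higher and none lower, namely the homeobox genes Msx1 (0.94 ± 0.12) and Dlx5 (3.29 ± 0.53) and the T-box gene Tbx2 (1.61 ± 0.22). Msx1 had 15.7, 14.2, 20.4 and 19.2 CPM in KO and 8.33, 6.19, 9.39 and 12.9 CPM in WT. Dlx5 had 19, 15, 19 and 16 counts in KO and 3, 1, 0 and 3 counts in WT, so its fitted fold rests on very few WT counts. Of the 12 inhibitors and co-repressors 3 were higher and none lower, with Smad6 joined by Bambi, a decoy receptor that lacks the kinase (1.28 ± 0.18), and Pmepa1 (0.43 ± 0.09, lost without the WT or KO 45 min library at 0.33 each). Of 14 antagonists 3 were higher and 1 lower, with chordin (Chrd, 0.94 ± 0.17) and Bmper (0.85 ± 0.14) among the higher ones.

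Receptors and signal carriers were mixed by genotype. Of 14 receptor genes 2 were higher in KO, Bmpr1b (0.76 ± 0.13) and Tgfbr2 (0.39 ± 0.11), and 1 was lower, Tgfbr1 (-0.66 ± 0.09). The Tgfbr2 call failed in 8 of 17 alternatives. These include fits without the library of either genotype at 15 min (0.43 each), 45 min (0.28 each) or 60 min (0.33 each). At a given time such fits are nearly the same. Of 6 SMAD genes 1 was higher, Smad1, a carrier of BMP signals (0.50 ± 0.13), whose call was lost without either 45 min library (0.51 each) or either 60 min library (0.34 each). Of 7 activin and TGF-beta ligand genes Tgfb3 (0.95 ± 0.12) and Tgfb2 (0.50 ± 0.09) were higher and Tgfb1 was lower (-0.70 ± 0.10). Of 9 TGF-beta target genes 4 were higher, among them Ccn2, a matricellular protein, at 1.01 ± 0.10 and Tgfbi at 0.83 ± 0.10. Of 7 bHLH genes none was higher and Twist2 was lower (-1.05 ± 0.11). The KO 0 min library, highest in cartilage and bone markers, enters this comparison. Without it those markers were still higher in each KO library than in any WT library, and Id1 and every gene named here kept its call, apart from those given as lost in fits without other libraries.

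**Figure D4:**
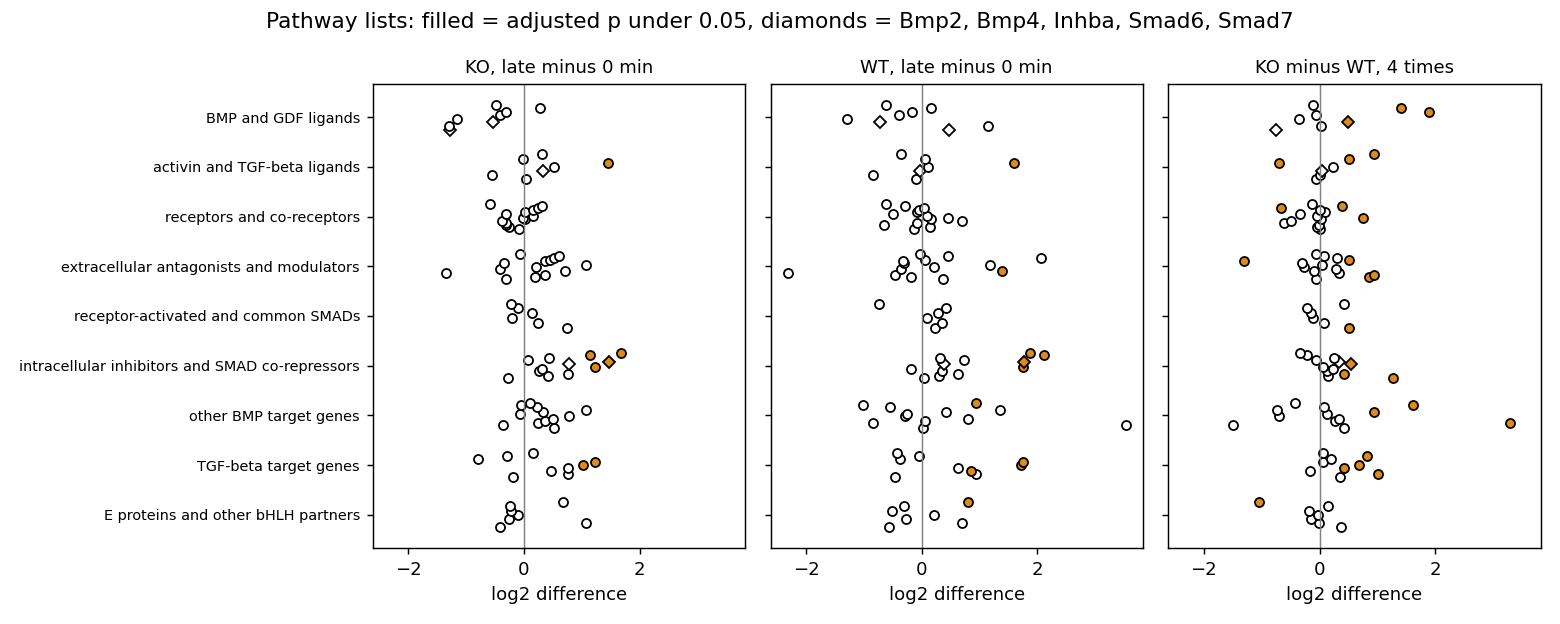
Log2 differences of the 87 tested genes of the 9 lists (some genes are in 2 lists) for the late response in KO, the late response in WT and KO minus WT over the 4 times, filled where the adjusted p is under 0.05, with diamonds for Bmp2, Bmp4, Inhba, Smad6 and Smad7. Id1, Id2 and Id3 are in no list. The inhibitor list holds the most late calls, 4 in each genotype, while calls by genotype are spread over all 9 lists.

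Genes with the most similar profiles were sought for each member by Pearson correlation of log2(CPM + 1) over the 8 libraries, among 9189 other genes (9190 for Bmp2) averaging at least 50 counts. The closest to Smad7 were Pak4 (r = 0.99), Actn1 (r = 0.98) and Hmgcs1 (r = 0.98). Smad6 was closest to Ybx1, Ipo5 and Atp5g1 (r = 0.98 each). Among the closest to Id1 were Bola3 (r = 0.97) and Clptm1 (r = 0.97). The closest were, for Id2, Nop53 (r = 0.98), Tssc4 (r = 0.97) and Btbd19 (r = 0.97), and, for Id3, Trub2 (r = 0.96), Memo1 (r = 0.94) and Snord43 (r = 0.93). Bmp2 was closest to Trim21 (r = 0.99), Kif23 (r = 0.98) and Rnpep (r = 0.96), and Bmp4 to Cirbp (r = 0.99), Cnn1 (r = 0.99) and Spry2 (r = 0.98). Inhba had the least similar neighbours, Zc3h10 (r = 0.94), Rps6 (r = 0.90) and Cpeb2 (r = 0.88). Among the members themselves the closest pairs were Id2 with Bmp4 (r = 0.88) and Smad6 with Smad7 (r = 0.78), and Id1 and Id2 were at r = 0.19. All of these values share the same 8 libraries and their scaling, and are given as a description.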

How the data were processed

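Chromatin-associated RNA from 8 fibroblast libraries was depleted of ribosomal RNA and sequenced from a stranded kit, per the labels' protocols. The submitters' processing notes name cutadapt 1.12, STAR, featureCounts 1.5.0, DESeq2 and the build mm10. As deposited by the authors, the table holds raw read counts for each gene beside its exon coordinates and length, per the file headers. No strand setting or annotation release is stated. Identifiers gave a symbol for 98.8% of rows.

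Genes reaching 10 counts in 2 or more libraries were tested with edgeR 4.0.16 in R 4.3.3 (TMM factors 0.817 to 1.21). The late fit had 6 cell means and 2 residual degrees of freedom, and the genotype fit with time as a block had 3. Standard errors are the log2 fold change over the square root of F. Ratios carry Clopper-Pearson intervals. Intervals and floors cover counting error only, as PCR copies are not independent molecules, and p-values measure the spread between these libraries. From each list, the 3 genes with the smallest p per comparison are named, as are the 3 genes closest to each member in profile, except that some are not reported here. Members and lists were chosen with earlier results of these data known. Alternatives used DESeq2 1.42.0, limma-voom (limma 3.58.1), other scalings, filters, baselines and times, and fits without each library in turn. Plots were made in matplotlib 3.10.9.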

Additional observations from a re-analysis of the deposited data

Results flagged for a closer look

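Bmp2 lay on opposite sides of its 0 min level in the genotypes: by TMM every KO library after TNF lay below the KO library at 0 min and every WT library after TNF lay above that of WT. Scaled by total counts the WT 15 min library lay below it (log2 ratio -0.28, against 0.05 by TMM). The late response in KO minus that in WT was -1.75 ± 0.61 on the log2 scale, which did not pass the adjusted threshold in edgeR's quasi-likelihood test (adjusted p = 0.422, and 0.267 to 1.00 over 14 alternatives). Bmp2 had at most 37 counts in any library. The KO 0 min library, the baseline of the KO values, had 424 CPM of summed cartilage and bone markers and 7.30 CPM of epithelial markers. Later KO libraries had 38.9 to 67.4 CPM and 0.442 to 1.05 CPM, and the part of this in the Bmp2 result was not tested.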

How the results depend on the processing

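With 1 library per genotype and time, depth limits Bmp2 most. All 17 alternatives kept the Id1 genotype call and all 15 the WT late call of Smad7. Not all of these are separate checks. Genotype fits without either library of a time are nearly the same fit. In the late fit, 15 min has a cell of its own. Leaving out WT 15 min or a KO library therefore moves the WT late response only through the scaling and the shared spread. Total counts in place of TMM moved the median of all genes by -0.21 (KO late), -0.22 (WT late) and -0.17 (genotype), and higher and lower calls were 57 and 156 in KO (198 and 78 with TMM), 304 and 280 in WT (628 and 197) and 477 and 2902 by genotype (1025 and 1421). For the KO late response, 276 genes called became 155 with DESeq2, 17 with no filter, 124 against 15 min and 1144 with 0 and 15 min joined, and 138 to 806 without single libraries (685 without WT 45 min, 806 without WT 60 min, 138 without KO 60 min). Members called higher were 0 with no filter and 2 with the joined baseline, with 1 to 2 without single libraries, and 1 was lower with the joined baseline. For WT, 825 became 426 with DESeq2, 278 with no filter and 1669 with the joined baseline, where 1 member was lower. For the difference of responses, 75 became 14 with no filter, 19 against 15 min and 198 with the joined baseline, and 48 to 172 without single libraries. By genotype, 2446 became 1535 with DESeq2, 1067 with no time block and 1163 to 2435 without single libraries. Members called higher, 3 in all, were 1 with total counts, 5 with no filter, 1 with no time block and 1 to 5 without single libraries. Members called lower were 1 with total counts, 1 with no filter, 1 at 15, 45 and 60 min, 1 at 45 and 60 min, and 0 to 1 without single libraries. The cause of these shifts was not tested. The labels give no replicate numbers, so no pairing by animal or culture was possible. KO and WT libraries were paired only by time, which the genotype comparison took as its block.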
